A study of Mus musculus with 2 samples.

Results

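The insulin-like growth factor genes followed here were *Igf1* itself, its receptor gene *Igf1r*, the insulin receptor gene *Insr*, the adaptor genes *Irs1* and *Irs2*, and 5 binding protein genes, *Igfbp2*, *Igfbp3*, *Igfbp4*, *Igfbp5* and *Igfbp7*. They were chosen by symbol, and all 10 were found once among the 32285 genes of the deposited feature table. Their levels were read in nuclei of whole mouse testes at the embryonic stage E14.5 by 10x multiome, in which each nucleus gives both its RNA and, through a transposase that cuts accessible DNA (ATAC), its open chromatin. The embryos were *Nr5a1-cre; Rosa-tdTomato*, and the Cre is driven by *Nr5a1*, a gene of gonadal somatic and steroidogenic cells. There was 1 RNA library and 1 ATAC library and no other genotype, treatment or age. The sources used here do not give a number of embryos.

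IGF1 is a secreted growth factor that binds the receptor tyrosine kinase IGF1R. Insulin binds the related receptor INSR, and both receptors pass the signal to the adaptors IRS1 and IRS2 and from there to the PI3K and AKT kinases. IGF binding proteins hold most extracellular IGF, lengthen its life and keep it from, or bring it to, its receptor. In mice the receptors of this family act together in the early XY gonad, where they are needed for testis determination, and IGF1 is known to promote Leydig cell growth and steroid production.

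The matrix held 9833 barcodes, and 7198 nuclei were kept, with a median of 7948 RNA molecules (UMIs) and 4477 ATAC fragments per nucleus. Nuclei were clustered without the 10 genes and without peaks near them, and clusters were named from marker genes. Progenitor-like nuclei, the mesenchymal cells of the interstitium, numbered 3268, germ-like 974, Sertoli-like 835, Leydig-like 791, mesonephric mesenchyme-like 408 and surface epithelium-like 561. The small classes were endothelial-like with 95 nuclei, immune-like with 68, pericyte-like with 67 and erythroid-like with 45. A cluster of 86 nuclei led by *Rmst* and *Pax8* was left unnamed and is called the *Pax8* cluster. It was the highest class for the supporting cell list at 804 summed CPM and for the mesonephric epithelium list at 57.5 summed CPM. Erythroid-like nuclei, under the minimum of 50, were left out of all rankings, which leaves 10 classes. The marker sums that follow describe the classes and do not test their names, which came from the same lists. The 6 Leydig genes (*Cyp17a1*, *Hsd3b1*, *Cyp11a1*, *Star*, *Insl3*, *Nr5a1*) summed to 4694 UMIs per 1000000 (CPM) in Leydig-like nuclei and to between 267 and 695 CPM in the other classes. The 6 germ cell genes (*Ddx4* and others) summed to 1217 CPM in germ-like nuclei and to at most 165 CPM elsewhere. The progenitor list was less sharp, with a sum of 1989 CPM in its own class and of 1127 CPM in surface epithelium-like nuclei.

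RNA levels, in CPM, are the UMIs of a gene per 1000000 UMIs of the class, and are compared within a gene and not between genes. Brackets hold exact 95% intervals, Poisson for levels, conditional binomial for ratios and Clopper-Pearson for shares. They cover counting error only, since 1 library has no replicate and no test between animals was possible. Over Scrublet's automatic doublet threshold lay 23.5% of germ-like, 18.8% of Leydig-like and 15.3% of Sertoli-like nuclei. So did 35.8% of endothelial-like and 29.4% of immune-like nuclei, against 4.93% of progenitor-like nuclei. Their part in the levels was not tested. Levels are therefore also given for a stricter set of 6318 nuclei, not over that threshold and of at most 50000 UMIs.

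Sequence from the regions that the chromatin results turn on is shown first. Promoter sequence came from RefSeq on GRCm38.p6, the build of the files, and 9 of the 10 genes had an entry, while *Insr* had no entry in that table. Each entry runs from 250 bases before to 50 after a transcription start. The motifs searched on both strands were GGGCGG (the GC box), TATAAA (a form of the TATA box), TGTTTAC (forkhead factors) and TGANTCA (AP-1). Also searched were CAAGGTCA (NR5A1, a regulator of steroidogenic genes) and AGGTCA (the site of a single nuclear receptor, which lies inside CAAGGTCA). Matches were exact, with N for any base, so other variants of these motifs were not counted. Promoters of 3 binding protein genes are shown as examples that differed in the motifs searched. Each is printed without its transcribed bases, with motif matches in capitals and on the strand of the gene. A link between motifs and RNA levels was not tested, and the *Igfbp3* promoter, not shown, also had no match. *Igfbp7* (chr5:77408046-77408295, minus strand) had 4 GC boxes, *Igfbp4* (chr11:99040994-99041243, plus strand) had a TATA box, and *Igfbp5* (chr1:72874885-72875115, minus strand) had no match to the motifs searched:
Igfbp7: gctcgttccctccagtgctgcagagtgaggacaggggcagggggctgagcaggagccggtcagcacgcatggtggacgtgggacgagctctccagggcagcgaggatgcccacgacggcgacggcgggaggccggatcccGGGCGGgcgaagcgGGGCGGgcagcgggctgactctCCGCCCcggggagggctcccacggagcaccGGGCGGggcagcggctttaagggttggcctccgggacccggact
Igfbp4: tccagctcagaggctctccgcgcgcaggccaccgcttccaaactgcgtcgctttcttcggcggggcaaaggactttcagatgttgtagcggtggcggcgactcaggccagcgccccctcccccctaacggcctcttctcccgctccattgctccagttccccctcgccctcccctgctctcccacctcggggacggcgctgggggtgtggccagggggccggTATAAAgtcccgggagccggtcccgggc
Igfbp5: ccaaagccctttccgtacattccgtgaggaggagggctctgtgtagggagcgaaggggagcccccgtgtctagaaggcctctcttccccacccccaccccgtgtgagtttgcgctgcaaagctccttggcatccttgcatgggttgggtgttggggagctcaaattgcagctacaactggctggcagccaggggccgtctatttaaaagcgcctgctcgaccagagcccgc

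A GC box was in the entries of 5 of the 9 genes (*Igf1r*, *Igfbp2*, *Igfbp7*, *Irs1* and *Irs2*), against 35.7% of all 32851 RefSeq promoters. TATAAA was in 1 of the 9, that of *Igfbp4*, against 13.6% of all promoters. CAAGGTCA was in the promoter entry of 0 of the 9 genes and in 1.56% of all promoters. CpG sites in the 300 bases numbered 48 in *Igf1r*, 41 in *Irs2*, 37 in *Igfbp3*, 33 in *Igfbp7*, 28 in *Irs1*, 27 in *Igfbp4*, 18 and 14 in the 2 entries of *Igfbp2*, 10 in *Igfbp5* and 6 in *Igf1*. The median of all promoters was 7. The *Igf1* entry (chr10:87860861-87861160) lies past the first start of the gene and outside the 1 kb around it in which fragments were counted.

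The centres of 2 peaks inside genes are shown because each holds one of the motifs searched and its fragments were most frequent in Leydig-like nuclei. They were chosen after their values were seen, and other named peaks, such as that 7.01 kb past the *Igfbp7* start, were higher in Leydig-like nuclei. Each run is 300 bases on the plus strand of mm10, with matches in capitals. The first lies in an intron of *Igf1*, 8.46 kb past its first start (chr10:87866576-87866875), and holds TGTTTAC, which is in the central 300 bases of 4.20% of all peaks. The second lies in an intron of *Igfbp7*, 13.7 kb past its start (chr5:77394240-77394539), and holds CAAGGTCA, which is in 6.18% of all peaks:
Igf1 intron peak: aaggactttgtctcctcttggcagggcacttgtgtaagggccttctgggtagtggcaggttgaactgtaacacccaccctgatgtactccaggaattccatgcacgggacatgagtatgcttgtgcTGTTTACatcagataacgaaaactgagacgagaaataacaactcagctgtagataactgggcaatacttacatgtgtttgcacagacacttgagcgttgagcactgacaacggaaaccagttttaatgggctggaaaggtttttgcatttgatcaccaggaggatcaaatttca
Igfbp7 intron peak: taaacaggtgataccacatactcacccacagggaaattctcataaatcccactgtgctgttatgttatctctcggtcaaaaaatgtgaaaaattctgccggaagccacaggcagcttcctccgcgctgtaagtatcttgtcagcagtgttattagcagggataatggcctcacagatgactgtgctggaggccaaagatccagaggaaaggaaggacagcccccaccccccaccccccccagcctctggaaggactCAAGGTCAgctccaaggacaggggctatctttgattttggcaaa

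*Igf1*, the ligand gene (chr10:87858265-87937042, plus strand), was highest in mesonephric mesenchyme-like and immune-like nuclei, followed by surface epithelium-like, progenitor-like and endothelial-like nuclei. It stood at 276 CPM (258 to 295) in mesonephric mesenchyme-like and 263 CPM in immune-like nuclei, which did not separate from each other. Surface epithelium-like nuclei at 177 CPM, progenitor-like at 168 CPM (163 to 173) and endothelial-like at 167 CPM formed a second group whose neighbours did not separate. Endothelial-like nuclei of the stricter set were at 253 CPM (212 to 300), above progenitor-like nuclei at 169 CPM (163 to 174). Pericyte-like nuclei followed at 87.4 CPM. At the foot were the *Pax8* cluster at 51.1 CPM, Leydig-like nuclei at 45.3 CPM (41.0 to 50.01), germ-like at 39.4 CPM and Sertoli-like at 39.1 CPM. Progenitor-like nuclei, which were 45.4% of the kept nuclei, held 49.1% of all *Igf1* UMIs.

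In Leydig-like and Sertoli-like nuclei *Igf1* was close to its germ-like level. In the stricter set *Igf1* was at 19.0 CPM (15.6 to 22.8) in Leydig-like, 16.5 CPM in Sertoli-like and 16.2 CPM in germ-like nuclei. Outside that set *Igf1* was at 99.7 CPM in Leydig-like, 94.4 CPM in Sertoli-like and 65.9 CPM in germ-like nuclei. Progenitor-like nuclei were at 169 CPM inside it and 164 CPM outside it. Progenitor-like nuclei were thus 3.71 times (3.35 to 4.12) as high as Leydig-like nuclei over all kept nuclei and 8.89 times (7.37 to 10.8) in the stricter set. With each nucleus thinned to 2000 UMIs, which left out 75 shallower nuclei, an *Igf1* UMI was in 25.4% of progenitor-like, 5.84% (4.31 to 7.71) of Leydig-like, 3.73% of Sertoli-like and 4.32% (3.13 to 5.80) of germ-like nuclei. No background level was measured. The germ-like share is set beside the others for comparison, and its interval overlaps the Leydig-like interval. In level over all kept nuclei, Leydig-like nuclei were 1.15 times (1.02 to 1.30) as high as germ-like nuclei. Unthinned, the shares were 53.6% of progenitor-like nuclei at a median of 6355 UMIs, 20.7% of Leydig-like at 9576 and 29.4% of germ-like at 15504.5. The stricter set left 48 immune-like nuclei, under the minimum of 50 for a class, in which *Igf1* was at 507 CPM (424 to 601). Among its classes past that minimum, mesonephric mesenchyme-like nuclei were highest at 290 CPM (269 to 312).

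**Figure D1:**
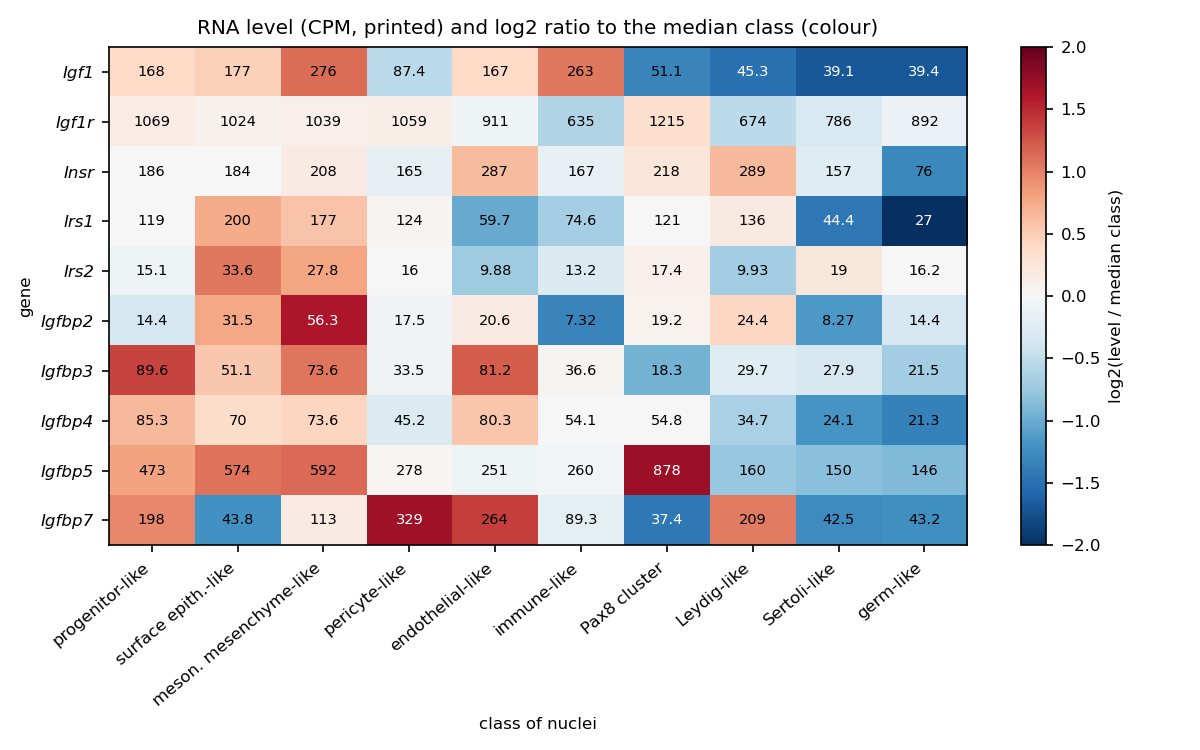
RNA level in CPM (number in each cell) of the 10 genes (rows) in 10 classes of nuclei (columns), with colour for the log2 ratio to the gene's median class. *Igf1* is red in mesonephric mesenchyme-like (276) and immune-like (263) nuclei and blue in Leydig-like, Sertoli-like and germ-like nuclei, while *Igfbp7* is red in pericyte-like (329) and endothelial-like (264) nuclei and *Igfbp5* in the *Pax8* cluster (878).

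The receptor genes ran opposite to each other between progenitor-like and Leydig-like nuclei. *Igf1r* (chr7:67952827-68233668, plus strand) was high in every class, from 635 CPM in immune-like nuclei to 1215 CPM in the *Pax8* cluster, a range of 1.91 times (1.72 to 2.14). The range was wider in the stricter set. There the *Pax8* cluster was at 1272 CPM (1188 to 1361). The 48 immune-like nuclei, under the minimum for a class, were at 392 CPM (320 to 476). The 4 mesenchymal and epithelial classes below the top, progenitor-like at 1069, pericyte-like at 1059, mesonephric mesenchyme-like at 1039 and surface epithelium-like at 1024 CPM, did not separate from each other as neighbours. Leydig-like nuclei had 674 CPM, and progenitor-like nuclei were 1.59 times (1.54 to 1.63) as high. After thinning, 84.3% of progenitor-like nuclei had an *Igf1r* UMI, and 64.1% of Leydig-like nuclei did.

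*Insr* (chr8:3122061-3279617, minus strand) was highest in Leydig-like nuclei at 289 CPM (278 to 300) and in endothelial-like nuclei at 287 CPM, which did not separate. Progenitor-like nuclei had 186 CPM (181 to 192), or 0.64 times (0.61 to 0.68) the Leydig-like level. Sertoli-like nuclei had 157 CPM and germ-like nuclei, the lowest, 76.0 CPM. In the stricter set endothelial-like nuclei were at 486 CPM (428 to 549), 1.59 times (1.39 to 1.82) the Leydig-like level of 305 CPM, and germ-like nuclei were at 43.0 CPM. After thinning, 43.0% of Leydig-like, 58.5% of endothelial-like, 31.5% of progenitor-like nuclei had an *Insr* UMI, against 10.5% of germ-like nuclei.

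The adaptor genes were highest in surface epithelium-like nuclei. *Irs1* (chr1:82233101-82291416, minus strand) stood at 200 CPM (189 to 212) in surface epithelium-like nuclei, 177 CPM in mesonephric mesenchyme-like, 136 CPM in Leydig-like and 119 CPM in progenitor-like nuclei. It was low in Sertoli-like nuclei at 44.4 CPM and lowest in germ-like nuclei at 27.0 CPM, which became 3.11 CPM (2.15 to 4.35) in the stricter set. Surface epithelium-like nuclei were 4.51 times (4.04 to 5.05) as high as Sertoli-like nuclei. *Irs2* (chr8:10984681-11008458, minus strand) had few UMIs, 1322 in all kept nuclei. It was at 33.6 CPM in surface epithelium-like and 27.8 CPM in mesonephric mesenchyme-like nuclei, which did not separate, and at 9.93 CPM in Leydig-like nuclei. Surface epithelium-like nuclei were 3.39 times (2.61 to 4.42) as high as Leydig-like nuclei. The shares of nuclei with an *Irs2* UMI after thinning were 8.29% in surface epithelium-like and 3.19% in germ-like nuclei.

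**Figure D2:**
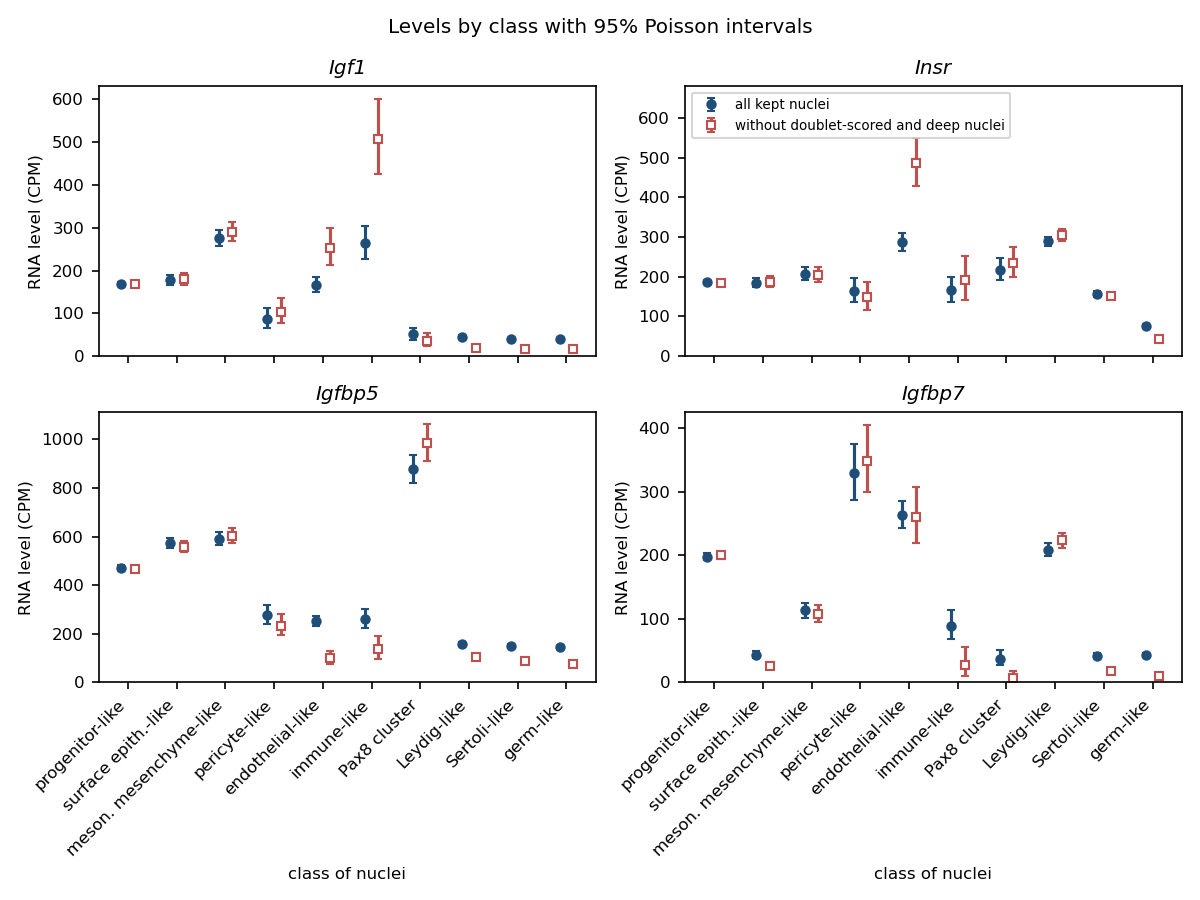
RNA level in CPM (vertical axis) of *Igf1*, *Insr*, *Igfbp5* and *Igfbp7* by class (horizontal axis), for all kept nuclei (filled circles) and for the stricter set without doublet-scored and deep nuclei (open squares), with bars for 95% Poisson intervals. The *Igf1* squares of Leydig-like, Sertoli-like and germ-like nuclei lie between 16.2 and 19.0 CPM, below their circles, and the *Insr* square of endothelial-like nuclei lies above every other *Insr* value.

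Among the binding proteins, *Igfbp5* (chr1:72857932-72874884, minus strand), which encodes a binding protein that also attaches to the matrix, was highest in the *Pax8* cluster and then in mesenchyme and surface epithelium. The *Pax8* cluster had 878 CPM, 1.48 times (1.37 to 1.60) the 592 CPM of mesonephric mesenchyme-like nuclei, followed without separation by surface epithelium-like at 574 CPM, and then by progenitor-like nuclei at 473 CPM (464 to 482). Leydig-like nuclei had 160 CPM (151.45 to 168.3), Sertoli-like 150 CPM (142.9 to 158.3) and germ-like 146 CPM (140.5 to 151.0). Neighbours among these 3 did not separate, while the Leydig-like and germ-like intervals did not overlap. In the stricter set the intervals of neighbours did not overlap either, at 106 CPM (97.8 to 115), 89.4 CPM (82.6 to 96.7) and 76.0 CPM (70.9 to 81.3). Endothelial-like nuclei there were at 100.2 CPM in place of 251 CPM, while the *Pax8* cluster was at 984 CPM.

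*Igfbp7* (chr5:77349240-77408041, minus strand), which encodes a secreted protein of vessel walls with low affinity for IGF, was highest in pericyte-like nuclei and in a part of the endothelial-like nuclei, followed by Leydig-like and progenitor-like nuclei. Pericyte-like nuclei had 329 CPM (288 to 375) and endothelial-like nuclei 264 CPM, a ratio of 1.25 (1.07 to 1.46). The endothelial level came from 32 nuclei at 389 CPM and 63 nuclei at 126 CPM, the latter below the Leydig-like and progenitor-like levels. Leydig-like nuclei followed at 209 CPM (200 to 219) and progenitor-like nuclei at 198 CPM (193 to 204), a ratio of 1.05 (0.998 to 1.11). In the stricter set the progenitor-like level was 0.894 times (0.840 to 0.952) the Leydig-like level, so there the classes separated. The order changed without a contractile-like group described below. Over all kept nuclei, the progenitor-like nuclei outside that group were at 227 CPM (220 to 234), above the Leydig-like level of 209 CPM (200 to 219). The gene was at 113 CPM in mesonephric mesenchyme-like nuclei and between 37.4 and 43.8 CPM in surface epithelium-like, germ-like and Sertoli-like nuclei and the *Pax8* cluster. In the stricter set Leydig-like nuclei had 224 CPM, surface epithelium-like 26.6 CPM, Sertoli-like 17.5 CPM and germ-like 9.43 CPM. The *Pax8* cluster was lowest there at 7.50 CPM (2.44 to 17.5), on 5 UMIs. An *Igfbp7* UMI was after thinning in 27.7% (18.9 to 37.8) of endothelial-like nuclei, 28.0% of progenitor-like nuclei, 31.98% of Leydig-like nuclei and 4.42% of germ-like nuclei. In the same thinned nuclei *Igfbp5* was in 22.2% of Leydig-like and 18.4% (16.0 to 21.0) of germ-like nuclei, so among these genes *Igfbp7* stood well above the germ-like share in Leydig-like nuclei and *Igfbp5* little above it.

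*Igfbp3* (chr11:7206086-7213923, minus strand), the main IGF carrier of blood, was highest in progenitor-like nuclei at 89.6 CPM (85.8 to 93.4), followed without separation by endothelial-like nuclei at 81.2 CPM. Mesonephric mesenchyme-like nuclei had 73.6 CPM, and progenitor-like nuclei were 1.22 times (1.06 to 1.398) as high. Progenitor-like nuclei outside the contractile-like group described below were at 73.3 CPM (69.3 to 77.4), close to the mesonephric mesenchyme-like level. Leydig-like nuclei had 29.7 CPM, Sertoli-like 27.9 CPM and germ-like 21.5 CPM. *Igfbp4* (chr11:99041244-99054392, plus strand), a binding protein that inhibits IGF action and is released by proteolysis, had a like order, with 85.3 CPM in progenitor-like, 80.3 CPM in endothelial-like, 73.6 CPM in mesonephric mesenchyme-like and 70.0 CPM in surface epithelium-like nuclei, which did not separate as neighbours. It was at 34.7 CPM in Leydig-like and 21.3 CPM in germ-like nuclei. Endothelial-like nuclei in the stricter set were at 134 CPM for *Igfbp4*, 1.57 times (1.22 to 1.99) the progenitor-like level. For *Igfbp3* they were at 110 CPM and did not separate from progenitor-like nuclei, with a ratio of 1.22 (0.92 to 1.58).

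*Igfbp2* (chr1:72824503-72852474, plus strand) ends 5.46 kb from the end of *Igfbp5*, which is read towards it from the other strand. The neighbours did not share an order of classes. *Igfbp2* was highest in mesonephric mesenchyme-like nuclei at 56.3 CPM (48.4 to 65.0), 3.91 times (3.25 to 4.70) the progenitor-like level of 14.4 CPM. Surface epithelium-like nuclei had 31.5 CPM, Leydig-like 24.4 CPM, the *Pax8* cluster 19.2 CPM, germ-like 14.4 CPM and Sertoli-like 8.27 CPM. The progenitor-like share of nuclei with an *Igfbp2* UMI after thinning, 2.86%, was within the interval of the germ-like share, 3.19% (2.18 to 4.50), and the Leydig-like share was 3.68% (2.48 to 5.24). The mesonephric mesenchyme-like share was 10.3%. Pearson's r of log2(CPM + 1) between *Igfbp2* and *Igfbp5* was 0.50 over the 10 classes, which share 1 library. The members most alike on that measure were *Igf1* and *Igfbp4* with r = 0.82.

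Of the 10 genes, 4 were at least 2 times as high in progenitor-like as in Leydig-like nuclei, namely *Igf1*, *Igfbp3*, *Igfbp4* and *Igfbp5*, and 0 were at least 2 times as high in Leydig-like nuclei. Of the 13473 genes with at least 200 UMIs, 15.1% passed in the first direction and 11.2% in the second. The ratios were 3.71 for *Igf1*, 3.02 for *Igfbp3*, 2.46 for *Igfbp4* and 2.96 for *Igfbp5*. Their intervals all lay above 2. With stricter minimums on nuclei and new clusters the count of 4 became 1, and the cause was not tested. There a cluster of 2070 nuclei with *Myh11* among its leading genes carried no name, and the progenitor-like class was a cluster of 435 cycling nuclei. With the same nuclei in their main classes the count was 4. Higher in Leydig-like nuclei without reaching the fold were *Insr*, *Igfbp2* at 0.59 times (0.49 to 0.70) and *Irs1* at 0.88 times (0.82 to 0.94). The median ratio of the members was 1.55, against 0.99 over all genes. The highest class was at least 3 times the median class in 3 of the 10, *Igfbp2*, *Igfbp5* and *Igfbp7*, at 3.07, 3.26 and 3.25 times. Over all tested genes 27.0% passed, so this count was near the background. The count was 3 under 1 of 11 alternatives, the stricter set, but there with *Igfbp3* at 3.02 times in place of *Igfbp2* at 2.86 times. It ran from 0, with clusters from chromatin alone among others, to 5.

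**Figure D3:**
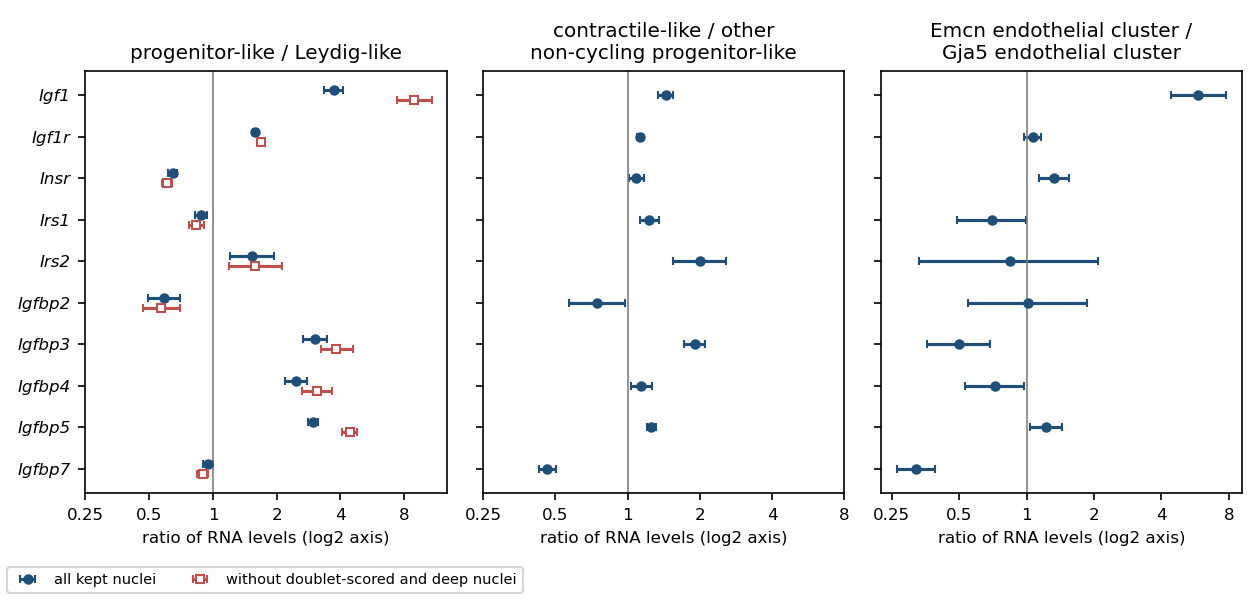
Ratios of RNA level (horizontal log2 axis) of the 10 genes (rows) between progenitor-like and Leydig-like nuclei (left, with the stricter set as open squares), contractile-like and other non-cycling progenitor-like nuclei (middle), and the *Emcn* and *Gja5* endothelial clusters (right), with bars for exact 95% intervals. *Igf1* is on the right of 1 in all panels and *Igfbp7* on the left in all panels, the latter at 0.95 in the first, where its interval (0.899 to 1.002) reaches 1.

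Progenitor-like nuclei were not uniform for these genes. At a clustering resolution of 0.6, a contractile-like group of 1062 nuclei with *Myh11*, *Myocd* and *Acta2* among its 10 leading genes came out, and 1053 of them were progenitor-like at the main resolution of 0.3. These are genes of smooth muscle and peritubular myoid cells. *Igfbp3* was at 133 CPM there against 70.0 CPM in the other non-cycling progenitor-like nuclei, a ratio of 1.90 (1.72 to 2.10). *Igf1* was at 218 against 152 CPM, a ratio of 1.44 (1.34 to 1.55). *Igfbp7* ran the other way, at 123 against 266 CPM, a ratio of 0.46 (0.43 to 0.50). After thinning, an *Igfbp7* UMI was in 18.8% of contractile-like and 35.5% of the other nuclei, and an *Igfbp3* UMI in 20.4% and 12.03%. *Irs2* was 1.9997 times (1.55 to 2.58) as high in contractile-like nuclei, at 22.7 against 11.4 CPM.

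The progenitor-like class held a cluster of 754 nuclei led by cell cycle genes, and its *Igfbp5* was at 375 CPM against 520 CPM in the other cluster of 2514 nuclei, a ratio of 1.39 (1.33 to 1.45) in favour of non-cycling nuclei. For *Igfbp4* that ratio was 1.42 (1.28 to 1.57) and for *Igf1* 1.23 (1.14 to 1.31), while *Igf1r* stood at 1064 and 1080 CPM, a ratio of 0.98 (0.96 to 1.01). The 2514 nuclei include contractile-like nuclei. Without those, *Igf1* was at 152 CPM (144 to 160) against 146 CPM (138 to 155) in the cycling cluster, and the intervals overlap. *Igfbp5* at 471 CPM (457 to 485) and *Igfbp4* at 89.2 CPM (83.3 to 95.4) stayed above the cycling cluster. *Igf1r*, at 1012 CPM (992 to 1032), lay below its cycling level of 1080 CPM (1057 to 1103).

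Endothelial-like nuclei split into 2 clusters at the resolution of 0.6 that differed for ligand and binding proteins. One had 63 nuclei led by *Klhl4*, *Ebf3* and *Emcn*, the last a surface protein of capillaries and veins. The other had 32 nuclei led by *Prex2*, *Mecom* and *Rasgrp3* and also by *Gja5*, a connexin of arterial endothelium. *Igf1* was at 294 CPM in the *Emcn* cluster and 50.8 CPM in the *Gja5* cluster, a ratio of 5.79 (4.40 to 7.73). *Igfbp7* was at 126 and 389 CPM, a ratio of 0.32 (0.26 to 0.39), and *Igfbp3* at 53.3 and 107 CPM, a ratio of 0.50 (0.36 to 0.69). The receptor gene *Igf1r* had a ratio of 1.06 (0.98 to 1.16).

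The split was also seen in shares of nuclei. After thinning, an *Igf1* UMI was in 28 of 62 *Emcn* cluster nuclei and in 0 of 32 *Gja5* cluster nuclei, which allows a share of up to 9.38% of nuclei with a UMI by the limit of 3 counts and of up to 10.9% by the Clopper-Pearson bound. An *Igfbp7* UMI was in 10 of 62 and 16 of 32. In the stricter set, with 41 and 20 nuclei, *Igf1* was at 392 CPM (328 to 465) and 15.4 CPM (3.18 to 45.1), and *Igfbp7* at 92.7 and 550 CPM. *Igfbp4* and *Igfbp5* were at 102 and 129 CPM in the *Emcn* cluster of that set and at 190 and 51.4 CPM in the *Gja5* cluster.

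Pairs of these genes were found in the same nucleus about as often as the product of their shares. In thinned progenitor-like nuclei *Igf1* and *Igfbp5* UMIs were found together in 14.3% (13.1 to 15.5), against a product of 13.8%. For *Igf1* and *Igfbp7* the values were 6.69% (5.85 to 7.61) and 7.12%. For *Igf1* and *Igfbp3* they were 4.14% (3.48 to 4.89) and 3.70%.

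Other genes of the pathway were read from a list of 46, of which 40 had at least 200 UMIs. The highest class was at least 3 times the median class in 12 of the 40, which is 30%, near the 27.0% of all genes. Proteases that cut IGF binding proteins and their inhibitor were among them. *Pappa*, which cleaves IGFBP4 and IGFBP5, was at 529 CPM in Sertoli-like and 414 CPM in Leydig-like nuclei against 67.3 CPM in progenitor-like nuclei. *Pappa2*, its paralog, was at 54.0 CPM in surface epithelium-like nuclei with a median class at 3.70 CPM. *Stc1*, an inhibitor of PAPPA, stood at 47.5 CPM in Leydig-like nuclei and 109 CPM in progenitor-like nuclei, and *Htra1*, a serine protease, at 120 CPM in the *Pax8* cluster.

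Further down the pathway, germ-like nuclei were highest for the PI3K subunit genes *Pik3r3* at 371 CPM and *Pik3cb* at 108 CPM, and for *Igfbpl1*, a binding protein-like gene, at 15.3 CPM. *Akt2*, a kinase gene of insulin signalling, was at 135 CPM in Leydig-like nuclei and 35.0 CPM in progenitor-like nuclei. *Foxo6* was highest in Sertoli-like nuclei at 28.4 CPM, and *Insrr*, the receptor gene related to *Insr*, in progenitor-like nuclei at 6.12 CPM. Of the 40, 6 were at least 2 times as high in progenitor-like as in Leydig-like nuclei and 6 the other way, against 15.1% and 11.2% of all genes.

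The genes whose levels over the 10 classes were most like a member's, among genes with at least 500 UMIs, are given by Pearson's r with no test. For *Igf1* they were *Prag1*, *Slc8a1* and *Gng2*, with r from 0.93 to 0.94. For *Insr* they were *Trappc6b*, *Upp2* and *Mocs1*, all highest in Leydig-like nuclei, with r of 0.94, 0.91 and 0.90. For *Igfbp5* they were *Mir100hg*, *Hmgn3* and *Ncam1* (0.98, 0.97 and 0.96), for *Igfbp7* *Jag1*, *Cdc42ep1* and *Atp5h* (0.93, 0.90 and 0.90), and for *Igfbp3* *Pcdhga12*, *Nhlrc2* and *Eln* (all 0.92). For *Igf1r* they were *Cldn34c1*, *Lrch2* and *2900060N12Rik* (0.96, 0.94 and 0.94), and for *Igfbp4* *Sox11*, *Capn2* and *Fscn1* (0.95, 0.94 and 0.93). For *Irs1* they were *Senp7*, *Rian* and *Boc* (0.95, 0.94 and 0.94), for *Irs2* *Dph7*, *Phactr1* and *Zfp184* (0.93, 0.84 and 0.84), and for *Igfbp2* *Camk2n1*, *Mcu* and *Fbln5* (0.91, 0.85 and 0.83).

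Chromatin at the starts of these genes was compared in the 6 classes of at least 300 nuclei, counting ATAC fragments with an end within 1 kb of the first start and scaling to 1000000 fragments of the class (FPM). *Igf1* varied most. It had 8.28 FPM (6.94 to 9.80) in progenitor-like, 7.76 in surface epithelium-like and 5.67 in mesonephric mesenchyme-like nuclei, 3.95 in Sertoli-like, 2.48 (1.07 to 4.88) in Leydig-like and 1.16 (0.53 to 2.20) in germ-like nuclei. Those 3 classes of high RNA were thus also the 3 of most promoter fragments. Progenitor-like nuclei had 3.34 times (1.65 to 7.90) the Leydig-like value, on 135 and 8 fragments. Around the last listed start, 3064 bp further on, the progenitor-like value was 3.74 and the Leydig-like 1.55.

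The receptor and adaptor promoters were open in every class. *Igf1r* ranged from 18.4 FPM in surface epithelium-like to 24.1 in progenitor-like nuclei, a ratio of 1.31 (0.96 to 1.83), and *Irs2* from 23.7 to 29.7, a ratio of 1.25 (0.94 to 1.67). *Insr* had 19.8 in Leydig-like nuclei against 16.4 in progenitor-like nuclei, a ratio of progenitor-like to Leydig-like of 0.83 (0.63 to 1.11), and 12.9 in germ-like nuclei, the lowest. *Irs1* had 34.0 in Leydig-like and 15.0 in germ-like nuclei, a ratio of 2.28 (1.74 to 2.98).

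**Figure D4:**
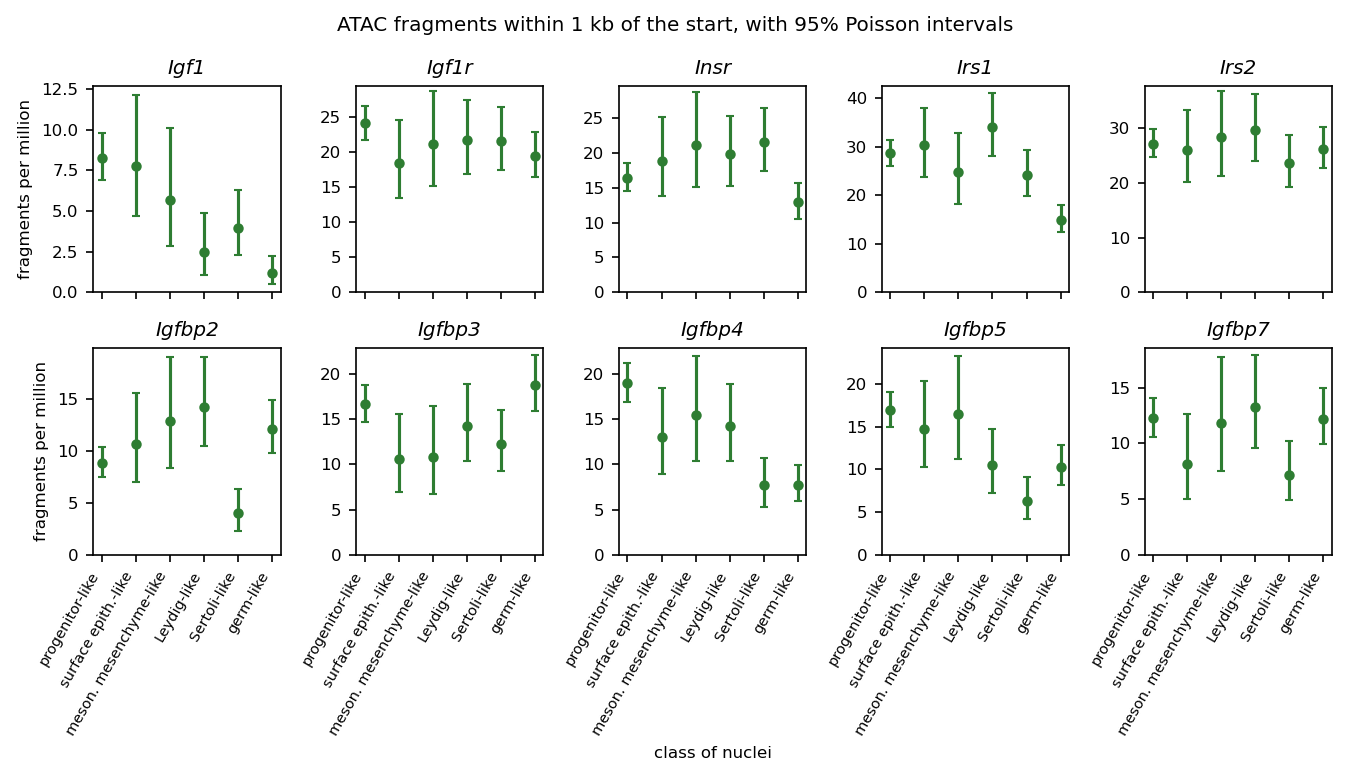
ATAC fragments within 1 kb of the start per 1000000 fragments of the class (vertical axes, each from 0) for the 10 genes in 6 classes of nuclei (horizontal axes), with bars for 95% Poisson intervals. *Igf1* falls from 8.28 in progenitor-like to 1.16 in germ-like nuclei, while *Igf1r* runs from 18.4 to 24.1 and *Irs2* from 23.7 to 29.7.

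Binding protein promoters differed less than their RNA, as did promoters over all genes. The median of highest over median class was 1.23 for promoter fragments and 1.88 for RNA over all genes. For the members it was 1.26 and 2.13. *Igfbp5* had 17.0 FPM in progenitor-like, 10.5 in Leydig-like and 6.27 in Sertoli-like nuclei, and progenitor-like nuclei had 1.61 times (1.13 to 2.38) the Leydig-like value against 2.96 times in RNA. *Igfbp4* ran from 19.0 in progenitor-like to 7.67 in Sertoli-like nuclei, a ratio of 2.48 (1.73 to 3.67). *Igfbp7* had 13.3 in Leydig-like, 12.3 in progenitor-like, 12.2 in germ-like and 7.20 in Sertoli-like nuclei, so that germ-like nuclei, low in its RNA, did not separate from progenitor-like nuclei in fragments. *Igfbp3* was highest at 18.8 (15.9 to 22.1) in germ-like nuclei, where its RNA was lowest of the 6 classes. Progenitor-like nuclei, highest in its RNA, had 16.7, within that interval. *Igfbp2* had 14.2 in Leydig-like and 3.95 in Sertoli-like nuclei, a ratio of 3.60 (2.03 to 6.71).

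The highest class had at least 2 times the promoter fragments of the median class in 0 of the 10 genes, against 3.31% of the 13414 genes with at least 200 fragments. *Igf1* was closest at 1.72 times, on 199 fragments, and so was the 1 member under that minimum. Among the 6 classes, the one with most RNA was among the 3 with most promoter fragments in 9 of the 10 genes, the exception being *Irs2*, and in 8 of the 9 with at least 200 fragments, against 60.9% of all genes past both minimums. The classes highest in RNA for *Igf1r*, *Igfbp5* and *Igfbp7*, the *Pax8* cluster and pericyte-like nuclei, were too small to be among the 6.

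Called peaks within 50 kb of the gene bodies were read in the same 6 classes, and those named are, unless said otherwise, the 2 of largest fold for each gene. Of the 102 different peaks with at least 100 cuts near the 10 genes, 17 (16.7%) had a highest class at least 3 times the median class, against 18.6% of all such peaks. Near *Igf1* a peak 40.3 kb before the start (chr10:87817533-87818406, intergenic) had 3.56 FPM (2.70 to 4.60) in progenitor-like nuclei, 3.09 in Leydig-like nuclei and 0.645 or less in germ-like, Sertoli-like and surface epithelium-like nuclei. The intron peak printed above had 4.95 (2.83 to 8.04) in Leydig-like, 3.48 in Sertoli-like and 1.72 in progenitor-like nuclei, an order unlike that of *Igf1* RNA. A peak 35.4 kb past the start, named after its values were seen, had 4.29 in progenitor-like, 3.61 in mesonephric mesenchyme-like, 1.86 in Leydig-like, 1.63 in surface epithelium-like and 1.29 in germ-like nuclei and 0 fragments in Sertoli-like nuclei. Surface epithelium-like nuclei, with more *Igf1* RNA than Leydig-like nuclei, were not above them there.

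Inside *Igfbp7*, peaks 7.01 kb and 13.7 kb past the start (chr5:77400740-77401316 and chr5:77393942-77394838, both intronic) were highest in Leydig-like nuclei, at 7.43 (4.76 to 11.1) and 5.26 (3.06 to 8.42) FPM, followed by progenitor-like nuclei at 3.13 and 3.62. The second is the peak whose CAAGGTCA match is printed above. A further intron peak 49.5 kb past the start, also named after its values were seen, had 11.8 in Leydig-like, 9.79 in mesonephric mesenchyme-like and 7.60 in progenitor-like nuclei and from 2.04 to 3.48 in surface epithelium-like, germ-like and Sertoli-like nuclei. At the first of these peaks the progenitor-like value lay below the Leydig-like interval, and at the second it lay within it.

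**Figure D5:**
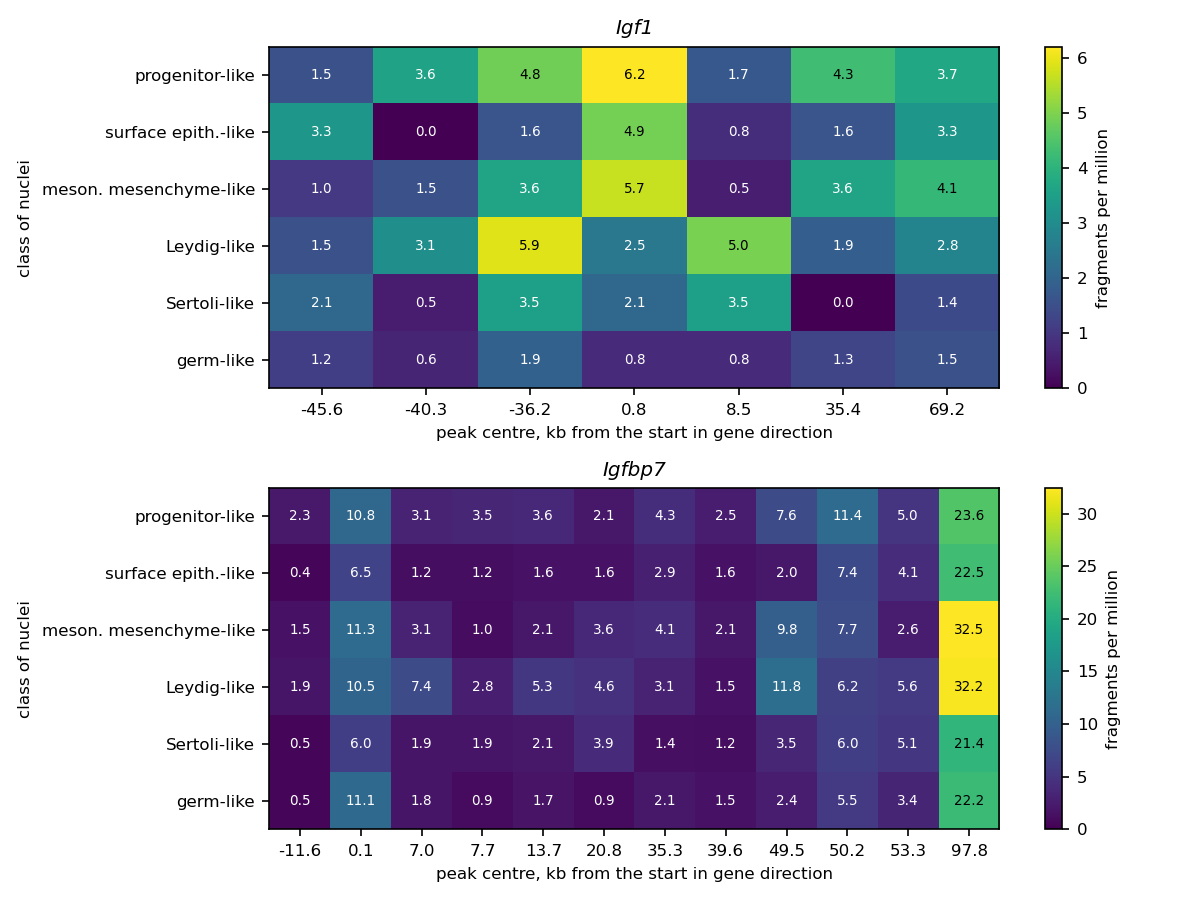
ATAC fragments scaled to FPM (number and colour) in called peaks with at least 100 cuts near *Igf1* (top) and *Igfbp7* (bottom), by class (rows) and by distance of the peak centre from the start in the direction of the gene (columns, kb). The *Igf1* start peak is highest in progenitor-like nuclei (6.19) and the *Igfbp7* peak at 7.0 kb in Leydig-like nuclei (7.43), and the *Igfbp7* column at 97.8 kb is a peak over exons of *Noa1* and *Polr2b*.

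Near the other binding proteins, an intergenic peak 59.4 kb from the *Igfbp5* start and 9.06 kb before that of *Igfbp2* (chr1:72815029-72815859) was highest in mesonephric mesenchyme-like nuclei at 6.18 (3.19 to 10.8), on 12 fragments. A peak in an *Igfbp2* intron (chr1:72839157-72839972) was highest in Sertoli-like nuclei at 5.11 (3.20 to 7.74), where *Igfbp2* RNA was lowest of the 6 classes. Leydig-like nuclei, with more *Igfbp2* RNA, had 4.02 at this peak, within that interval. Over an exon of *Tns4*, 30.9 kb past the *Igfbp4* start (chr11:99071652-99072550), a peak had 16.7 (12.02 to 22.7) in surface epithelium-like nuclei against a median of 2.74. The other *Igfbp4* peak, intergenic and 58.7 kb past the start (chr11:99099477-99100382), was highest in mesonephric mesenchyme-like nuclei at 2.58 (0.836 to 6.01). For *Igfbp3* an intergenic peak 16.3 kb before the start (chr11:7229803-7230671) was highest in Sertoli-like nuclei at 5.11, and one 47.8 kb before it (chr11:7261264-7262111) in progenitor-like nuclei at 3.13 (2.33 to 4.11).

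For the adaptors and receptors, an intergenic peak 46.3 kb past the *Irs2* start (chr8:10961732-10962589) had 15.5 (11.0 to 21.3) in surface epithelium-like, 7.21 in mesonephric mesenchyme-like and 6.498 in progenitor-like nuclei. Sertoli-like nuclei had 3.48, Leydig-like 2.48 and germ-like 1.42. *Irs2* RNA was at 19.0 CPM in Sertoli-like, 16.2 CPM in germ-like and 15.1 CPM in progenitor-like nuclei, and the intervals of these classes overlap. The other *Irs2* peak of largest fold (chr8:11035716-11036582, in an intron of *9530052E02Rik*) was highest in Leydig-like nuclei at 5.57 (3.30 to 8.80). In an intron of *Insr* a peak 70.1 kb past the start (chr8:3209078-3209967), whose central 300 bases hold 2 matches of AGGTCA, a motif in 22.5% of all peaks, had 9.59 (6.52 to 13.6) in Leydig-like nuclei. That interval held the median over the classes, 6.61. The *Insr* peak of largest fold in cuts, over an exon 67.8 kb past the start (chr8:3211383-3212265), was highest in Sertoli-like nuclei by cuts, with 3.95 FPM (2.30 to 6.32) there and 4.02 FPM in Leydig-like nuclei. A peak 282.9 kb past the *Igf1r* start (chr7:68235174-68236212, intergenic) was highest in germ-like nuclei at 5.03 (3.58 to 6.87), and one in an *Igf1r* intron (chr7:68065794-68066603) in mesonephric mesenchyme-like nuclei at 4.64, on 9 fragments. For *Irs1* the 2 peaks with the largest fold lay 91.2 and 99.96 kb past the start and were highest in Sertoli-like nuclei, at 4.65 and 4.18.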

How the data were processed

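The authors aligned the reads to mm10 and deposited a matrix of RNA UMI counts and ATAC cut counts per nucleus, made with Cell Ranger ARC 2.0.1 per the submitters' processing notes, and a list of fragments. The matrix held 122049390 UMIs and 38243814 cuts in 109215 peaks, and 93.6% of the 58448458 unique fragments lay in its barcodes.

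Nuclei were kept with at least 500 genes, under 10% mitochondrial and 0.5% haemoglobin UMIs, 250 to 25000 fragments at peaks and over 20% of fragments at peaks, which left 7668. The 470 (6.13%) with the highest Scrublet scores were removed. This caller (scanpy 1.11.5) is not the one used in the study, and free RNA and listed artefact regions were not removed. Clusters were made from RNA and chromatin together (Seurat 5.3.0, R 4.3.3, irlba 2.3.5.1) at resolution 0.3, with 56 genes and 705 peaks of the pathway held out, and named from marker lists. RNA classes held at least 50 nuclei and chromatin classes at least 300, a minimum chosen after the counts were seen. Intervals came from scipy 1.17.1 (Python 3.11.15), and the ratio scripts were tested on simulated data. Gene bodies were those of GENCODE on mm10.

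The genes and lists were chosen with earlier results of these data known. All members were named, then up to 10 listed pathway genes of largest fold at 3 times or more, the 3 genes most alike each member and the 2 peaks of largest fold for each with at least 100 cuts. Alternatives changed doublet removal, minimums, clustering, the UMI cap of 50000, the mean, a pseudocount of 1 CPM, and the promoter window and scaling.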

Additional observations from a re-analysis of the deposited data

How the results depend on the processing

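There was 1 library per assay, so intervals cover counting error only, no replicate could be left out and differences between embryos were not measured. No paired analysis was possible because the results come from no test and each assay has 1 library. With stricter minimums and new clusters, 1 gene in place of 4 (*Igf1*) was at least 2 times as high in progenitor-like as in Leydig-like nuclei and 1 in place of 0 (*Igfbp2*) the other way. There the progenitor-like class was a cluster of 435 cycling nuclei and a larger cluster carried no name. With the main classes kept on those nuclei, and under each other alternative, the counts were 4 and 0. The number whose highest class was at least 3 times the median class was 3. It was 3 under 1 of 11 alternatives, without doublet-scored and deep nuclei, but there with *Igfbp3* in place of *Igfbp2*. It was 2 under 4 and 4 under 3. It became 0 with clusters from chromatin alone, 0 past the stricter minimums with main classes and 5 with the mean over nuclei of their own CPM. The cause was not tested. The number whose highest RNA class was among the 3 with most promoter fragments ranged from 7 to 9. Of the values for single genes under an alternative, 103 moved by more than their interval and 227 did not. The progenitor-like to Leydig-like ratio of *Igfbp7*, 0.949 and under no call, ran from 0.894 to 1.13, so its direction depended on the setting. The progenitor-like to Leydig-like ratio of *Igf1* ran from 2.48 with stricter minimums to 8.89 without doublet-scored and deep nuclei. That last setting, and the stricter minimums with main classes, were chosen after seeing the data. *Insr* was highest in Leydig-like nuclei under 5 of 11 alternatives and in endothelial-like nuclei under the others, and progenitor-like nuclei were highest for *Igfbp3* under 5 and for *Igfbp4* under 4 of the 11.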
